A study of Mus musculus with 58 samples.

Results

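The 10 genes described here are a textbook set of the ATF4 stress response: the transcription factors Atf4, Atf5 and Ddit3, the regulator Trib3, the enzymes Chac1, Asns, Psat1, Phgdh and Shmt2, and the nutrient sensor Sesn2. They were taken by name from the 22556 genes of the deposited count tables, and all 10 were found. The question was whether they moved with doxycycline, the drug used in these cells to switch on Xist, because doxycycline also inhibits translation on mitochondrial ribosomes.

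Chromatin-associated RNA (ChrRNA-seq) was measured in 58 libraries of interspecific XX mouse embryonic stem cells (mESCs) that carry a doxycycline-inducible Xist gene on the domesticus X chromosome. All lines carry this inducible allele, so that every library with doxycycline also had Xist induced, and effects of the drug and of Xist cannot be told apart. The mESCs were harvested without doxycycline (day 0) or after 1 day at 1 µg/mL (day 1), and cultures moved to neural precursor (NPC) differentiation medium were harvested after 3 and 6 days of continuous doxycycline. There are 28 groups, of which 26 have 2 libraries and 2 have 3.

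In the PCGF35 line, both PCGF3 and PCGF5 carry an FKBP12 degron and were left untreated (control) or treated with dTAG-13 from 12 h before doxycycline, at the 100 µM that the labels state. The PCGF35_SPOC line has the same degrons with mutation of the SPEN SPOC domain (clones F10 and F6, each with and without dTAG-13). The SPOC line has the SPOC mutation alone (clones C11, D9 and H1 as mESCs, D9 and H1 as NPCs). DelPID_SPOC (clones A8 and G3) combines a deletion of the PID element (the B and C repeat region) within the inducible Xist allele with the SPOC mutation, and the study describes a clone G of this line as tetraploid. These give 6 combinations of line and treatment with mESC and NPC libraries, called pairs below for their day 1 and day 0 groups. WT and DelPID cells have NPC libraries only. Nothing in the labels says that libraries of the PCGF35, WT and DelPID groups came from separate clones, and p-values there measure only the spread between these libraries.

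ATF4 is made when phosphorylation of eIF2α slows general translation, since upstream reading frames in its mRNA then let ribosomes reach the main frame. The kinases that phosphorylate eIF2α respond to amino acid shortage, misfolded protein in the endoplasmic reticulum, haem loss, viral RNA and, through OMA1 and DELE1, mitochondrial stress. ATF4 then drives genes of amino acid supply, serine and one-carbon metabolism and stress regulation, usually by binding C/EBP-ATF response elements. Because ATF4 is controlled largely at translation, ChrRNA-seq of the gene reads its transcription and not its protein.

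Of the 10 genes, 3 had the letters TGATGNAA, the core of such an element, on either strand between 250 bases before and 50 bases after the annotated start (RefSeq, GRCm38.p6). They are shown because the list rests on ATF4 regulation, and each 30-base stretch is written 5′ to 3′ on the gene's strand with the matching letters in capitals.
Trib3: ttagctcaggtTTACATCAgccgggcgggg
Asns: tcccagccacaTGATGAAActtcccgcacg
Chac1: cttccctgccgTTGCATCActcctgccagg
The Trib3 stretch lies at chr2:152344028-152344057, with the match on the opposite strand and its first base at position 15 counted from the start. In Asns, at chr6:7693214-7693243, the match is on the gene's own strand and begins 23 bases before the start (position -23). The Chac1 stretch is at chr2:119351038-119351067, with an opposite-strand match that begins at position -193. The same letters occur in 3.97% of the 32851 RefSeq windows of this kind, and the windows of the other 7 genes held none. A match is a description of letters and not of binding.

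Library depth ran from 2.29 to 30 M fragments assigned to genes (M, mega, median 15.9 M), and from 11.8 M in mESCs. Genes were kept for testing where counts were high enough for the group size, which left 16227 genes and all 10 members, whose lowest count in any library was 10 (Atf5). The domesticus allele gave 62.4% and 79.4% of allele-assigned Xist reads in replicate 1 of PCGF35 dTAG at days 0 and 1. It gave 86.5%, 54.5% and 79.6% in SPOC clones C11, D9 and H1 at day 0, where Xist was low, and at least 94.9% in the other mESC libraries. In NPC cultures, replicate 1 of both DelPID groups was shallow, at 6.37 and 2.29 M. Of 10 pluripotency markers, the 9 kept for testing summed to 1311 to 2389 CPM (counts scaled to a common library size) on day 0 and to 374 to 1348 CPM at NPC day 6. Of 10 neural markers, the 6 kept summed to 37.4 to 148 CPM and 50.4 to 428 CPM. Sox2 was at 0 in at least 1 library of each stage. Sox1, Fabp7, Pou3f2 and Zic1 were each at 0 in at least 1 NPC library, and the pluripotency sum overlapped between the stages. Of 10 fibroblast markers, the 9 kept summed to 401 to 929 CPM on day 0 and 374 to 875 CPM at NPC day 6 (the mESCs are grown on mouse fibroblast feeders that were removed by pre-plating). Of the full list, Lum and Postn were at 0 in at least 1 library of each stage and Col3a1, Dcn and S100a4 in at least 1 library of some stages. In such bulk libraries, fewer cells of a type and less RNA per cell cannot be told apart, and the part of culture makeup in the results below was not tested.

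Before doxycycline, the members covered a wide range of levels. Per kilobase of gene body, which includes introns in this assay, the median over the 13 day 0 libraries was highest for Atf4 at 35.3 CPM per kb and Asns at 18.4 CPM per kb. Shmt2 followed at 7.12, Psat1 at 5.51, Ddit3 at 2.66, Sesn2 at 2.53, Phgdh at 1.77 and Chac1 at 1.13 CPM per kb. Trib3, at 0.545, and Atf5, at 0.458 CPM per kb, were the lowest, and every gene in this order overlapped its neighbours across the libraries.

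The members differed in how far the libraries spread. Between the lowest and the highest day 0 library, Atf5 spanned 7.60-fold, Chac1 5.72-fold, Trib3 5.04-fold and Asns 4.00-fold, whereas Sesn2 spanned 1.31-fold. Asns, which makes asparagine, was at 422 to 691 CPM in the 3 SPOC clones and at 617 CPM in DelPID_SPOC clone G3, against 173 to 397 CPM in the other 9 libraries. Psat1 and Phgdh, of the serine synthesis pathway, had the opposite order, with 64.7 to 74.8 CPM and 29.2 to 33.6 CPM in the SPOC clones and 102.8 to 164 CPM and 41.7 to 71.1 CPM in the 8 libraries of the degron lines. In a test of the difference among PCGF35 control, PCGF35_SPOC control, DelPID_SPOC and SPOC at day 0 (edgeR quasi-likelihood, Benjamini-Hochberg), 2239 of 16227 genes (13.8%) passed at an adjusted p under 0.05, and of the members Psat1 (adjusted p = 0.0094) and Phgdh (adjusted p = 0.0269) did. The Phgdh call was lost without either PCGF35 control library (edgeR adjusted p = 0.0786 and 0.0555) and without SPOC clone C11, D9 or H1 (adjusted p = 0.0653, 0.123 and 0.0725, Benjamini-Hochberg). Chac1 was called without PCGF35_SPOC control clone F10 or F6 (edgeR adjusted p = 0.0359 and 0.0338, Benjamini-Hochberg), and Asns without F10 or DelPID_SPOC clone A8 (0.0369 and 0.0325), while the count of all genes fell to 1256 at the lowest, when a SPOC clone was left out. Clones of one line were themselves unlike: in the F6 clone of PCGF35_SPOC, Atf5, Chac1 and Trib3 were at 0.904, 2.66 and 3.62 CPM, and in clone F10 at 3.34, 8.18 and 6.55 CPM.

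After 1 day of doxycycline in mESCs, none of the 10 genes passed the test without pairing by clone, in any line or over all lines. Some fits with fewer libraries and with clone or replicate as a block did call members, as given below. Over the 6 pairs, the fitted changes of the members lay between 0.87-fold (Chac1) and 1.11-fold (Atf4). Their 95% intervals had upper bounds from 1.12-fold (Psat1 and Shmt2) to 1.46-fold (Trib3), below a 2-fold rise for every member. The test was edgeR's quasi-likelihood test on all 58 libraries with a mean per group, and a gene was called at a Benjamini-Hochberg adjusted p under 0.05. It called 15 of 16227 genes (0.0924%), led by Xist, and 0 of 10 members, with 658 genes and 0 members at an unadjusted p under 0.05. DESeq2 called 36 genes and again 0 members. The median log2 change was 0.06 over the members and 0.00 over all genes tested.

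**Figure D1:**
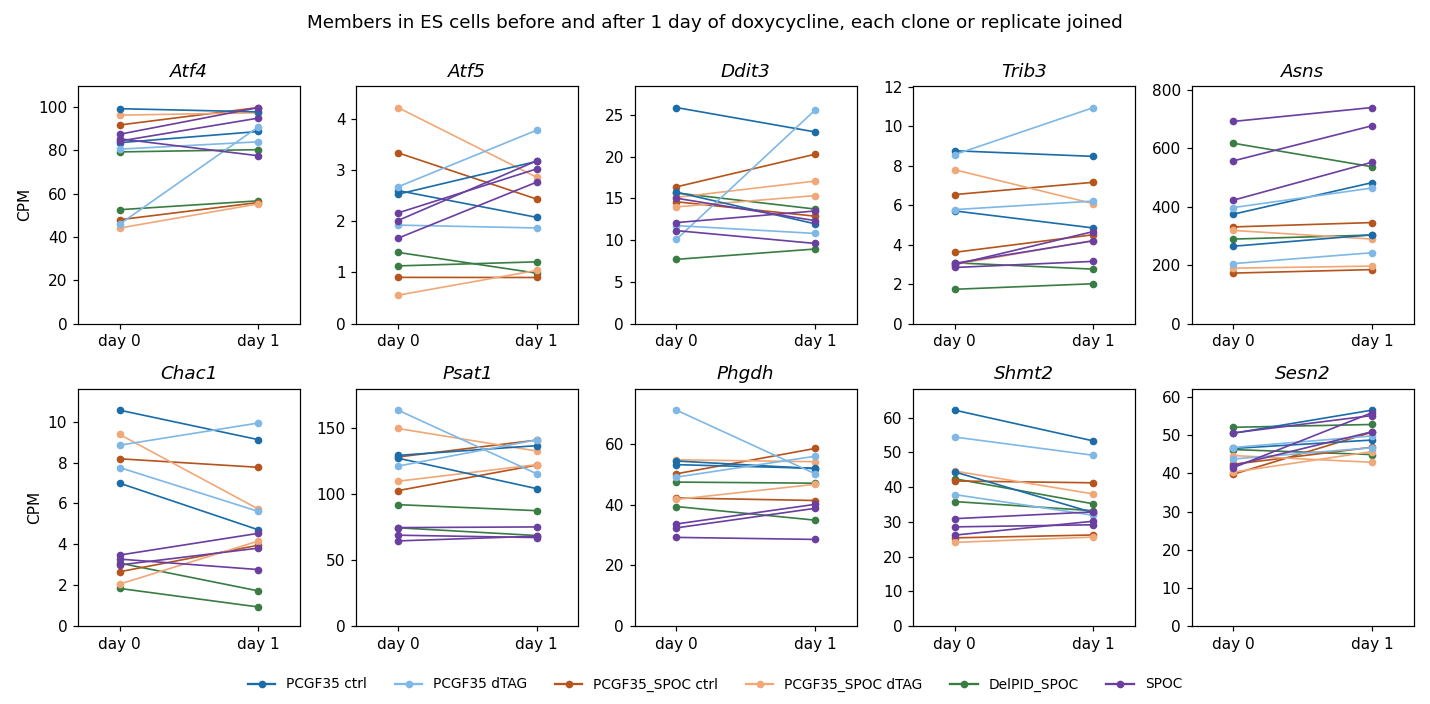
Level of each member (CPM, linear axes from 0) in mESCs on day 0 and day 1, 13 lines per panel, each joining the libraries of one clone or, for PCGF35, of one replicate number. Clones and replicates with degrons have a line without and a line with dTAG-13. Lines run both up and down in most panels, Asns differs widely among clones, and the steep lines in Atf4 and Ddit3 belong to PCGF35 dTAG replicate 2.

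Among the transcription factors, Atf4 was at 44.1 to 99.2 CPM on day 0 (median 83.5, n = 13 libraries) and at 55.3 to 99.7 CPM on day 1 (median 88.6). It was higher on day 1 in 11 of 13 clones or replicates, and only 2 day 1 libraries lay above the highest day 0 library. In this count and all such counts below, clones F10 and F6 and the PCGF35 replicates enter both without and with dTAG-13. The entries are therefore not all separate clones or replicates. The steepest step, from 45.9 to 90.8 CPM, was in PCGF35 dTAG replicate 2, and the fitted log2 change was 0.15 (SE 0.14, edgeR adjusted p = 0.9999, Benjamini-Hochberg).

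Ddit3 encodes CHOP, a factor that ATF4 induces under lasting stress. It ran from 7.70 to 25.9 CPM on day 0 (median 14.6) and from 8.93 to 25.6 CPM on day 1 (median 13.5), and was higher in 6 of 13. PCGF35 dTAG replicate 2 went from 10.1 to 25.6 CPM, the only step above 1 on the log2 scale. Without that day 1 library the mean log2 change over the pairs went from 0.10 to -0.03.

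Atf5, a related factor linked to mitochondrial stress, was at 0.556 to 4.23 CPM on day 0 (median 2.02) and 0.902 to 3.78 CPM on day 1 (median 2.44). The stages overlapped throughout, and 7 of 13 were higher. The 3 SPOC clones each rose in level, from 2.17, 1.67 and 2.02 CPM to 3.03, 2.77 and 3.19 CPM, a step that the fit over all libraries did not call (log2 change 0.61, SE 0.50, edgeR adjusted p = 1, Benjamini-Hochberg).

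Trib3 and Chac1 overlapped between the days. Trib3, a pseudokinase that ATF4 and CHOP induce and that feeds back on them, was at 1.74 to 8.77 CPM on day 0 (median 3.62) and at 2.02 to 10.96 CPM on day 1 (median 4.67), higher in 9 of 13. Chac1, which breaks down glutathione, was at 1.85 to 10.6 CPM (median 3.48) and then 0.940 to 9.93 CPM (median 4.54), higher in 5 of 13. Its lowest values were in DelPID_SPOC, where clones A8 and G3 went from 3.09 and 1.85 CPM to 1.73 and 0.940 CPM (log2 change -0.90, SE 0.64, not called).

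Of the enzymes, Asns was higher on day 1 in 11 of 13 clones or replicates. It ran from 173 to 691 CPM on day 0 (median 331) and from 185 to 739 CPM on day 1 (median 345), and a clone that was high on day 0 was high on day 1. The log2 change was 0.11 (SE 0.15). Psat1 (64.7 to 164 CPM, then 67.2 to 141 CPM), Phgdh (29.2 to 71.1 CPM, then 28.5 to 58.5 CPM) and Shmt2, the mitochondrial serine hydroxymethyltransferase (24.1 to 62.2 CPM, then 25.7 to 53.3 CPM), were higher in 7, 5 and 5 of 13. Their log2 changes were -0.03, 0.01 and -0.12, with SEs of 0.09, 0.08 and 0.14.

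Sesn2, a sestrin that senses leucine and restrains mTORC1, had the tightest values and the smallest p. It was at 39.8 to 52.1 CPM on day 0 (median 44.7) and at 42.9 to 56.6 CPM on day 1 (median 49.8), higher in 11 of 13, with 4 day 1 libraries above every day 0 library. The fitted change was 9.47% (log2 0.13, 95% interval -0.01 to 0.27, edgeR adjusted p = 0.9999, Benjamini-Hochberg). When clone or replicate entered as a block, 96 genes (0.592%) and 0 members were called over all libraries. With mESC libraries alone and the block, 1289 of 15920 genes (8.1%) were called, and of the members Sesn2 alone was (log2 change 0.13, 95% interval 0.06 to 0.21, edgeR adjusted p = 0.0277, Benjamini-Hochberg).

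**Figure D2:**
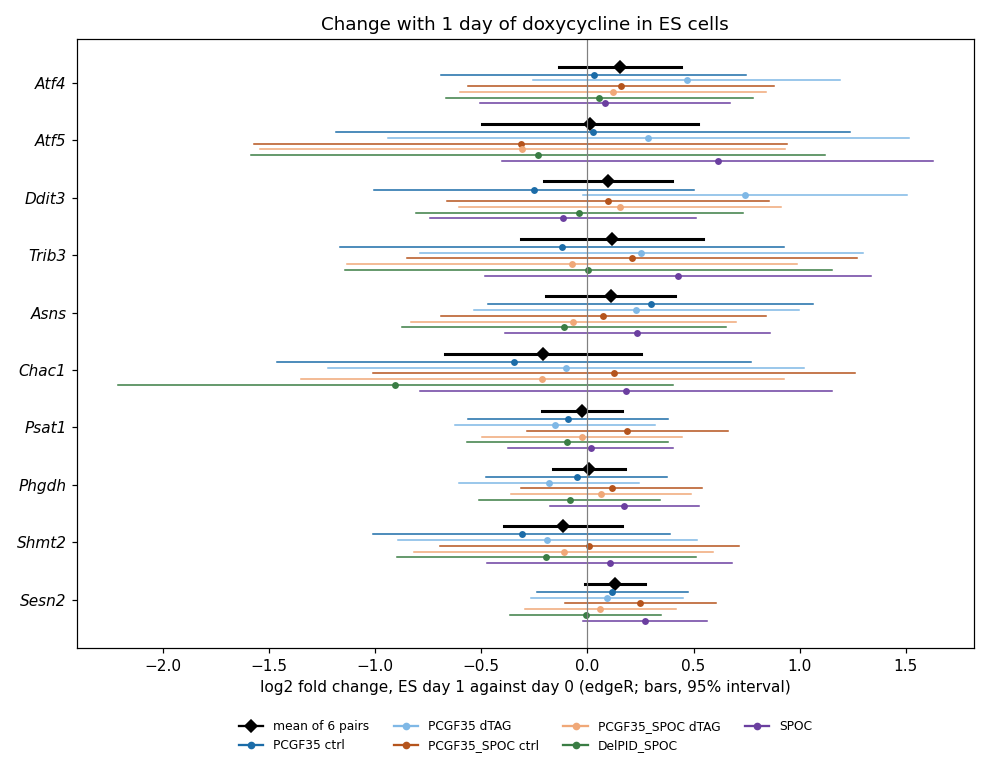
Log2 fold change on day 1 against day 0 for each member, as the mean of 6 pairs (black diamonds) and in each pair (coloured points), with 95% intervals from edgeR. Every interval of a pair spans 0, and those of the mean are narrower and span 0 as well. These intervals are from the fit over all libraries without pairing by clone. Some fits with clone or replicate as a block gave intervals that exclude 0, as for Sesn2 with mESC libraries alone (0.06 to 0.21).

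Within single pairs the fit over all libraries again called 0 members, against 2 to 4 genes per pair (0.0247% of genes in PCGF35 control, 0.0185% in PCGF35 dTAG and 0.0123% in each of the other pairs). A test of whether the day 1 change differed among the 6 pairs called 0 genes and 0 members, and no member had an unadjusted p under 0.05 in it (the lowest was 0.4999, for Ddit3). The 2 groups of a pair fitted alone, with clone or replicate as a block, gave more calls. In SPOC, 1984 of 14537 genes (13.6%) and 3 members were then called, all higher on day 1: Atf5 (log2 change 0.63), Sesn2 (0.28) and Asns (0.27). In PCGF35 control, 1341 of 15037 genes (8.92%) and 2 members were called, with Asns higher (0.28) and Shmt2 lower (-0.33). In PCGF35_SPOC control, 798 of 15171 genes (5.26%) were called, and Sesn2 (0.26) and Psat1 (0.20) were higher. In PCGF35_SPOC dTAG, DelPID_SPOC and PCGF35 dTAG this fit called 185 (1.22%), 61 (0.411%) and 2 (0.0134%) genes and 0 members. No member was called in more than 2 of these 6 fits.

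In related pathways the fit over all libraries also called 0 genes on day 1. No gene passed among 18 of amino acid transport and synthesis (median log2 change 0.01), 13 tRNA synthetases (0.00), 13 stress regulators (-0.02), 10 of the eIF2α kinase pathway (0.01), 11 of mitochondrial protein quality (-0.02), 16 of the endoplasmic reticulum unfolded protein response (-0.01), 7 NRF2 targets (-0.12) and 8 p53 targets (0.07). In amino acid supply, Slc7a3, a cationic amino acid transporter, and Mthfd2 had the smallest p (log2 changes -0.30, SE 0.20, and 0.19, SE 0.16). At an unadjusted p under 0.05 these lists held 1 gene each for the eIF2α kinase pathway, NRF2 and p53, and 0 for the others. With mESC libraries only and the replicate block, 1 gene of amino acid transport and synthesis, 1 of the eIF2α kinase pathway and 2 NRF2 targets were called lower, and 0 of the other lists were called. The 13 genes encoded by mitochondrial DNA, whose translation doxycycline blocks, are not analysed here.

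At NPC day 3, with 3 days of doxycycline in differentiation medium, the members changed in both directions. Over the 6 pairs against mESC day 0, Trib3, Chac1, Atf5, Sesn2, Phgdh and Psat1 were higher, Ddit3 and Asns were lower, and Atf4 and Shmt2 were not called. At NPC day 6, Trib3, Atf5, Sesn2, Chac1 and Phgdh were higher and Asns was lower. So 8 and 6 of 10 members were called, where 55.6% and 58.9% of all 16227 genes were (26.4% higher and 29.2% lower at day 3, then 29.4% each way). Both comparisons use the same day 0 libraries, and doxycycline, medium and differentiation change together in them and cannot be told apart. The members' median log2 change was 0.38 and 0.31, against -0.02 and 0.01 (0.005) over all genes.

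**Figure D3:**
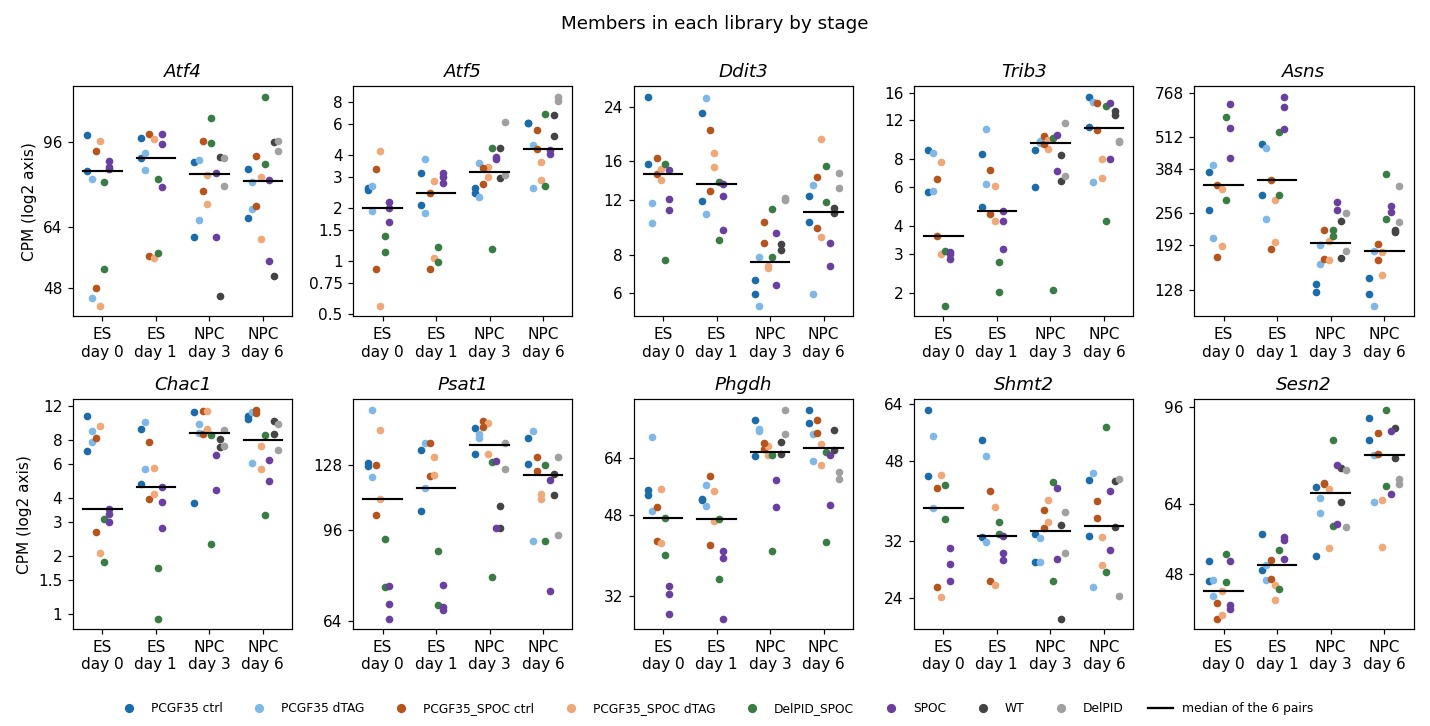
Level of each member in all 58 libraries (CPM, log2 axis) by stage, coloured by line and treatment, with a bar at the median of the 6 pairs that have mESC libraries. The median of Sesn2 climbs with every stage, but not every line or clone does, and its step to day 1 was not called over all libraries. Trib3, Atf5, Chac1 and Phgdh are higher in NPC cultures, Asns is lower, and Atf4 and Shmt2 overlap their day 0 values.

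Atf4 was not called at either day. It was at 61.1 to 107.4 CPM at NPC day 3 (median 82.4, n = 12) and 54.5 to 119 CPM at day 6 (median 79.7), with 1 library above the day 0 range each time. Its log2 changes were 0.13 and 0.08 (SE 0.14 for both, edgeR adjusted p = 0.446 and 0.653, Benjamini-Hochberg). The other two factors went opposite ways. Atf5 was at 1.17 to 4.38 CPM at day 3 (median 3.19) and 2.62 to 6.85 CPM at day 6 (median 4.33), where 7 of 12 libraries lay above every day 0 library. Its log2 changes were 0.57 (SE 0.24, edgeR adjusted p = 0.0481) and 1.096 (SE 0.24, adjusted p = 0.000249, Benjamini-Hochberg). The day 3 call was lost in 20 of 25 fits that left out 1 library, with log2 changes of 0.36 to 0.59 (0.595) in those 20. It was kept only without PCGF35 dTAG day 0 or NPC day 3 replicate 1, PCGF35_SPOC control or dTAG day 0 replicate 1, or DelPID_SPOC NPC day 3 replicate 2. It was also lost under 4 of the other settings (log2 change 0.50 to 0.56).

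Ddit3 fell to 5.46 to 11.3 CPM at day 3 (median 7.60), where no library reached the day 0 median and 6 of 12 lay below the lowest day 0 library. It was lower in 11 of 12 clones or replicates, with a log2 change of -0.85 (SE 0.16, edgeR adjusted p = 2.12e-05, Benjamini-Hochberg). At day 6 it was back at 5.97 to 18.9 CPM (median 11), and the log2 change of -0.31 was not called (edgeR adjusted p = 0.0759, Benjamini-Hochberg). Leaving out PCGF35 control day 0 replicate 1, PCGF35 dTAG or PCGF35_SPOC dTAG NPC day 6 replicate 1, or clone G3 of DelPID_SPOC at day 0 gave a call (log2 change -0.36, -0.43, -0.42 and -0.39).

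Trib3 and Chac1 were higher in NPC cultures. Trib3 was at 2.05 to 10.3 CPM at day 3 (median 9.47) and 4.20 to 15.3 CPM at day 6 (median 11.1), against a day 0 median of 3.62, and was higher in 11 and 12 of 12 clones or replicates. Its log2 changes were 0.85 (SE 0.21, edgeR adjusted p = 0.000942) and 1.17 (SE 0.21, adjusted p = 1.68e-05, Benjamini-Hochberg). In DelPID_SPOC the clones stood apart, with Trib3 at 9.94 CPM in A8 and 2.05 CPM in G3 at day 3.

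Chac1 was at 2.29 to 11.2 CPM at day 3 and 3.27 to 11.4 CPM at day 6, and was higher in 9 of 12 each time. The log2 changes were 0.59 and 0.60 (SE 0.23 for both, edgeR adjusted p = 0.0265 and 0.0222, Benjamini-Hochberg). The day 3 call was lost without PCGF35 control day 0 replicate 2 (0.54) or NPC day 3 replicate 2 (0.43), PCGF35_SPOC control or dTAG day 0 replicate 2 (0.49 and 0.48), DelPID_SPOC NPC day 3 replicate 1 (0.38), DelPID_SPOC day 0 replicate 2 (0.53) or SPOC NPC day 3 replicate 1 (0.53). The day 6 call was lost without PCGF35 dTAG NPC day 6 replicate 1 (0.52), PCGF35_SPOC control or dTAG day 0 replicate 2 (0.50 and 0.48), DelPID_SPOC NPC day 6 replicate 1 (0.46) or DelPID_SPOC day 0 replicate 2 (0.55).

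Of the enzymes, Asns fell from a day 0 median of 331 CPM to 125.7 to 283 CPM at day 3 (median 196) and 110.3 to 365 CPM at day 6 (median 182), and was lower in 10 and 11 of 12. Its log2 changes were -0.83 and -0.84 (SE 0.15 for both, edgeR adjusted p = 2.52e-05 and 1.99e-05, Benjamini-Hochberg). In single pairs, SPOC had log2 changes of -1.03 and -1.06, and PCGF35_SPOC control -0.37 and -0.47, which were not called.

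Phgdh, the entry enzyme of serine synthesis, was at 40.1 to 77.2 CPM at day 3 and 41.9 to 81.4 CPM at day 6, higher in 12 and 11 of 12. Its log2 changes were 0.46 and 0.51 (SE 0.08 and 0.09, edgeR adjusted p = 2.62e-05 and 5.36e-06, Benjamini-Hochberg). Psat1, which acts after it, was higher at day 3 (77.8 to 156 CPM, log2 change 0.30, SE 0.09, edgeR adjusted p = 0.00782, Benjamini-Hochberg) and was not called at day 6 (73.2 to 149 CPM, log2 change 0.11). Shmt2 stayed at 26.2 to 43.1 CPM and 25.4 to 57.0 CPM, with log2 changes of -0.17 and -0.07.

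Sesn2 gave the steadiest change of the members. It was at 51.6 to 83.6 CPM at day 3 (median 67.0) and 53.7 to 94.8 CPM at day 6 (median 78.6). Of 12 libraries, 11 at day 3 and 12 at day 6 lay above every day 0 library, and all 12 clones or replicates were higher both times. The log2 changes were 0.53 and 0.75 (SE 0.07 for both, edgeR adjusted p = 1.31e-07 and 1.15e-10, Benjamini-Hochberg), and in single pairs they ran from 0.31 to 0.76 and from 0.48 to 1.00. A test of whether the NPC changes differed among the 6 pairs called 46 genes (0.283%) at day 3 and 352 (2.17%) at day 6, and 0 members at both.

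In single pairs the number of members called at NPC days 3 and 6 ran from 0 to 5. In SPOC, 5 and 4 members were called (29.8% and 34.1% of genes), with Trib3 at log2 changes of 1.55 and 1.92, Phgdh at 0.76 and 0.86, Sesn2 at 0.58 and 0.78 and Asns at -1.03 and -1.06 at both days, and Psat1 at 0.71 at day 3. In PCGF35 control it was 2 and 3 (19.6% and 29.5%): Ddit3 (-1.72) and Asns (-1.29) at day 3, and Asns (-1.27), Phgdh (0.55) and Sesn2 (0.85) at day 6. DelPID_SPOC gave 2 and 3 (17.6% and 19.2%): Asns (-1.08) and Sesn2 (0.53), then Atf5 (1.90), Trib3 (1.94) and Sesn2 (0.73). PCGF35_SPOC control gave 1 and 2 (4.89% and 7.37%), Sesn2 (0.76), then Sesn2 (1.00) and Phgdh (0.70). In PCGF35 dTAG 0 members were called at day 3 (6.78%) and Sesn2 alone at day 6 (0.66, 11.4%), and in PCGF35_SPOC dTAG 0 at both (2.53% and 5.37%). Sesn2 was thus called in 5 of 6 pairs at one day or both.

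Between NPC day 3 and day 6, over 8 pairs that include WT and DelPID, 3 members were called and all were higher at day 6, where 21.3% of all genes were called (10.6% higher and 10.8% lower). Ddit3 had a log2 change of 0.48 (SE 0.14, edgeR adjusted p = 0.0118), Sesn2 0.21 (SE 0.06, adjusted p = 0.0156) and Atf5 0.60 (SE 0.21, adjusted p = 0.0398, Benjamini-Hochberg). Ddit3 and Atf5 were each higher in 14 of 16 clones or replicates and Sesn2 in 13 of 16. The Atf5 call was lost in 18 of 32 fits that left out 1 library (log2 change 0.49 to 0.60 in those 18) and without clone G3 (0.58). Trib3 was higher in 12 of 16 and was not called (log2 change 0.36, edgeR adjusted p = 0.163, Benjamini-Hochberg), but was with clone or replicate as a block (0.36) and without DelPID_SPOC NPC day 3 replicate 1 (0.55). In WT, Sesn2 was at 64.6 and 74.4 CPM at day 3 and at 88.0 and 77.5 CPM at day 6.

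Related lists went different ways in NPC cultures. Of 18 genes of amino acid transport and synthesis, 13 were higher and 0 lower at both days (median log2 change 0.48 and 0.44), and with the replicate block 1 was lower at both. They included Slc7a11, the cystine transporter (1.89 and 1.56), Cth of transsulfuration (0.77 and 1.11) and Aldh1l2 of mitochondrial folate metabolism (1.15 and 1.03). Of 13 tRNA synthetases, 7 and 8 were higher and 1 lower (2 lower with the block or DESeq2 at both days), with Mars at 0.48 and 0.58 and Iars at -0.19 and -0.26.

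In the endoplasmic reticulum unfolded protein response, 0 genes were higher and 12 and 11 of 16 were lower (median -0.57 and -0.35). The chaperones Dnajb9 (-1.44 and -1.77) and Hsp90b1 (-1.05 and -0.84) were among those lower. Among 13 stress regulators, 1 was higher and 4 lower at day 3, and 4 higher and 2 lower at day 6. Vegfa (-1.02 and -0.44) was lower both times, Ddit4 (-0.69) and Ppp1r15a (-0.54), which directs the eIF2α phosphatase, at day 3, and Cebpg, an ATF4 partner, was higher (0.33 and 0.40).

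Of 10 genes of the eIF2α kinase pathway, 5 were higher and 2 lower at day 3, and 2 each way at day 6, where the replicate block gave 6 higher. Gcn1l1, the GCN2 activator GCN1, was higher (0.58 and 0.76), as was 0610009O20Rik, the older name of Dele1 (0.28 and 0.34), while Eif2ak3, the kinase PERK, was lower (-0.37 and -0.30). Mitochondrial chaperones and proteases gave 3 higher and 1 lower of 11 both times, a split that moved with the fit: 4 and 3 were lower with the replicate block, 3 and 3 with DESeq2, 2 and 3 with RLE scaling, and 0 at day 6 without the filter. Among them were Trap1 at 0.50 and 0.26 and Clpx at -0.24 and -0.18. Of 7 NRF2 targets 5 were higher and 0 lower both times, with Gclm at 0.99 and 0.59 and Nqo1 at 0.88 and 0.47. Of 8 p53 targets, 4 were lower at each day, among them Trp53inp1 (-0.89 and -0.87) and Eda2r (-0.58 and -0.71), and Bbc3 was higher at day 6 (0.61). Since 55.6% and 58.9% of all genes were called here, these counts describe the lists and set none apart.

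**Figure D4:**
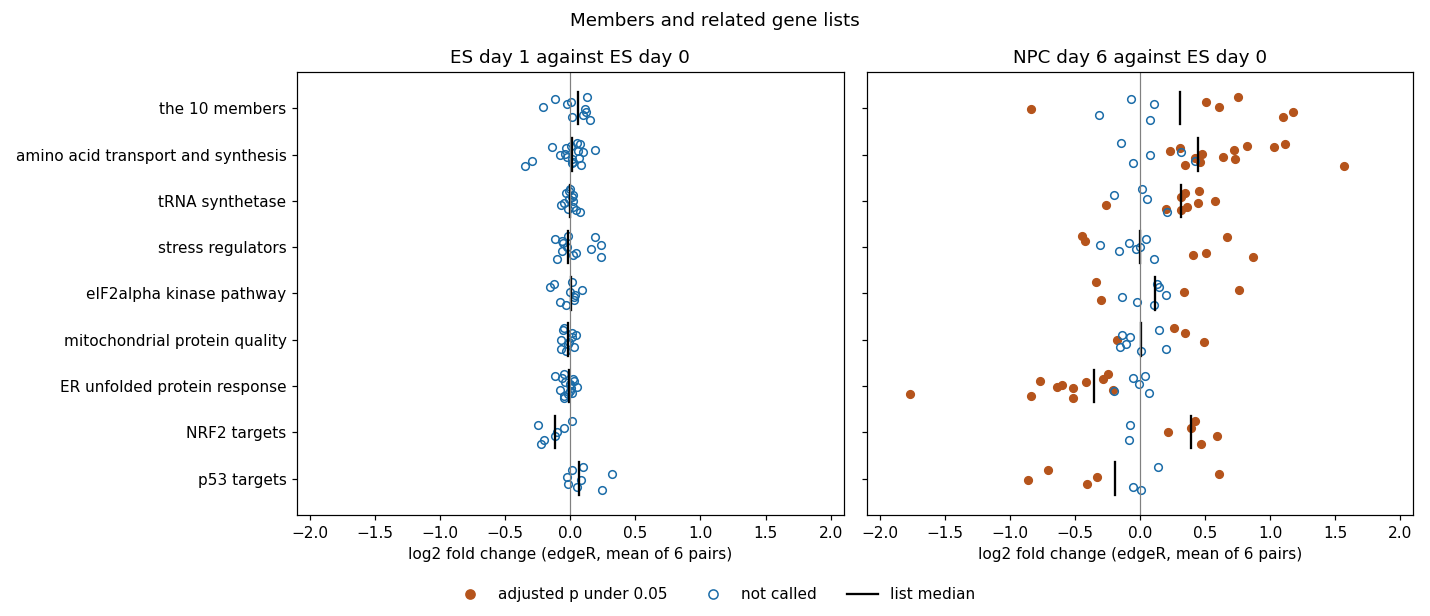
Log2 fold change of every tested gene of the members and 8 related lists, as the mean of 6 pairs, on mESC day 1 (left) and at NPC day 6 (right) against mESC day 0. On day 1 no gene is called and the list medians (bars) lie between -0.12 and 0.07, whereas at NPC day 6 the unfolded protein response lies to the left and amino acid supply to the right.

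Degrading PCGF3/5 changed no member by the test. In mESCs, dTAG-13 against control over 4 pairs gave 0 called genes of 16227 (0%) and 0 members, with 235 genes at an unadjusted p under 0.05 and 0 of them members, and DESeq2 called 0 members. The members' log2 differences ran from -0.25 (Ddit3, 95% interval -0.63 to 0.13) to 0.09 (Psat1, 95% interval -0.14 to 0.33). At day 0 in the PCGF35 line, Ddit3 was at 11.7 and 10.1 CPM with dTAG-13 against 15.7 and 25.9 CPM in control, and Atf4 at 80.5 and 45.9 CPM against 83.5 and 99.2 CPM. For Atf4 the nearest treated and control libraries were thus at 80.5 and 83.5 CPM. With 2 libraries per group, the order of these values cannot tell treatment from spread between libraries, and 0 genes (0%) were called in that pair. In PCGF35_SPOC the Ddit3 groups overlapped.

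In NPC cultures the same comparison gave 0 called genes (0%) and 0 members, with 1139 genes at an unadjusted p under 0.05 and Sesn2 as the only member among them. Sesn2 was lower with dTAG-13 in 7 of 8 matched libraries, with a log2 difference of -0.22 (SE 0.09, edgeR adjusted p = 0.607, Benjamini-Hochberg). DESeq2 called 12 genes and the fit with the block 536 genes (3.3%), and 0 members in both. This comparison averages NPC days 3 and 6. At day 6, matched log2 differences of Trib3 were -0.08 and -0.82 in PCGF35, and -0.835 and -0.72 in PCGF35_SPOC. At day 3 they were 0.70, 0.11, -0.185 and 0.06 in the same order. Those of Atf5 were -0.40, -1.20, -0.59 and -0.61 at day 6, and -0.08, 0.46, 0.31 and -0.165 at day 3. Ddit3 went both ways at day 6 (0.12, -0.77, 0.40 and -0.10). Day 6 over both lines was not tested. A test of whether dTAG-13 altered the day 1 change called 0 of 16227 genes (0%) and 0 members, with wide intervals, as for Ddit3 (log2 difference of changes 0.53, 95% interval -0.23 to 1.28).

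The members' levels were compared across libraries as a description. Over all 58 libraries, which share stages and lines, the 45 pairs of members had Pearson correlations of log2 CPM from -0.75 to 0.90 (median 0.24), with Trib3 and Chac1 the closest pair. Over the 26 mESC libraries with the mean of each pair's libraries subtracted, they ran from -0.68 (Ddit3 and Asns) to 0.86 (Trib3 and Shmt2), with a median of 0.43. The genes outside the set whose levels were most like the members' mean over 58 libraries were Aars and Sars, which are tRNA synthetases (r = 0.85 and 0.81), Mthfd2 of mitochondrial folate metabolism (0.83), Upf3a (0.79) and Tubb3 (0.78). Among the mESC libraries alone they were Plekhg2 (0.90), Ptprn (0.89), Nr2f6 (0.89), Lrfn4 (0.88) and Amotl2 (0.88). Only the mean of each line and treatment was subtracted, so differences between clones of a line remain in the mESC correlations. Each clone enters on both days, and F10 and F6 also without and with dTAG-13, so the same clone differences are counted more than once.

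The 10 genes lie on autosomes, and reads that could be assigned to a parental allele were used as a description. The domesticus share of Atf4 was 46.6% ± 3.75 on day 0 (SD, n = 13), 47.6% ± 2.73 on day 1 (SD, n = 13) and 47.7% ± 3.49 at NPC day 6 (SD, n = 12). That of Asns was 42.3% ± 2.35 on day 0 (SD, n = 13) and 43.6% ± 2.66 on day 1 (SD, n = 13). Shmt2 was at 56.9% ± 2.18 on day 0 (SD, n = 13), 54.5% ± 4.03 on day 1 (SD, n = 13) 52.98% ± 2.86 at NPC day 3 (SD, n = 12) and 55.2% ± 4.58 at NPC day 6 (SD, n = 12), with libraries of the stages overlapping.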

How the data were processed

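ChrRNA-seq libraries were analysed from tables that the authors deposited, which hold raw read counts per gene body (introns included, strand-specific). Per the study's methods, rRNA reads were removed with Bowtie2 2.3.2, the rest was aligned with STAR 2.4.2a to mm10 with SNPs masked, split by allele and counted with featureCounts 1.5.2. Total counts were used for levels and allele-assigned counts for shares. CPM and log2 CPM (prior count 1) used TMM library sizes. All 58 libraries were fitted with a mean per group in edgeR 4.0.16 (R 4.3.3) by the quasi-likelihood test after filterByExpr, which kept 16227 of 22556 genes, with Benjamini-Hochberg adjustment over all of them and a threshold of 0.05. The test was checked on simulated data drawn without clone or replicate effects, so the check does not cover libraries that share a clone. DESeq2 1.42.0, other scalings, no filter (20978 genes), mESC libraries only (15920 genes), blocks and leaving out libraries were alternatives. The tests of differences among lines at day 0 and in NPC changes, library size scaling and 3 sets of left-out libraries were added after seeing the data.

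The members and lists were chosen with earlier results of these data known. All members are named. Of each list, at most 3 genes per direction were named, by largest change among called genes with a mean of at least 1 CPM, or the 2 genes of smallest p where none was called. A neural marker of the list is not reported here by name. No member overlaps another gene on its strand. Atf5, Ddit3 and Shmt2 overlap an antisense gene (Nup62, Mars and Ndufa4l2). The precision of low members (Atf5, Chac1 and Trib3) is limited by counts.

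Libraries of one named clone were paired by the clone, and PCGF35, WT and DelPID libraries share only a replicate number. Deviations from group means correlated with a median r of 0.34 (0.345) over 57 pairs of libraries of a named clone, 49 of them over 0.1, and 0.10 over 36 pairs that share a number. These medians pool all stages, and in groups of 2 libraries both pairs give the same r. Between mESC day 0 and day 1, r was 0.82 and 0.81 in PCGF35_SPOC control and dTAG, and 0.73 in DelPID_SPOC. It was 0.31 to 0.49 in SPOC, 0.63 in PCGF35 control and 0.17 in PCGF35 dTAG.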

Additional observations from a re-analysis of the deposited data

How the results depend on the processing

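No member changed direction while called in any alternative. On mESC day 1, 0 of 10 members were called over the 6 pairs in every setting other than mESC libraries only with the replicate block (1 member, 1289 genes). All-gene counts moved more: against 15 genes, the replicate block gave 96, mESC libraries only 32 and DESeq2 36. For PCGF35 control (4 genes), the replicate block gave 23, mESC libraries only with the block 395, DESeq2 9 and both groups alone with the block 1341 (2 members). For PCGF35 dTAG (3 genes) the block gave 9 and mESC libraries with the block 1216. For PCGF35_SPOC control (2 genes) mESC libraries with the block gave 4 and both groups alone with the block 798 (2 members). Both groups alone with the block gave 185 genes in PCGF35_SPOC dTAG and 61 in DelPID_SPOC (2 genes each otherwise), and leaving out clone G3 gave 1 in each. For SPOC (2 genes) the block gave 26, mESC libraries only 4, mESC libraries with the block 934 (1 member), DESeq2 6 and both groups alone with the block 1984 (3 members). The difference among the pairs on day 1 (0 genes) gave 140 with mESC libraries and the block. NPC day 6 against day 3 (3462 genes) gave 5612 with the block. dTAG-13 in mESCs (0 genes) gave 2 with the block and 147 with mESC libraries and the block, and in NPCs (0 genes) 536 with the block, 12 with DESeq2 and 1 without clone G3. The difference among pairs at NPC day 3 (46 genes) gave 1900 with the block, 430 with DESeq2 and 13 without clone G3, and at day 6 (352 genes) 4119, 1340 and 148, and 232 without the filter. For the day 0 difference among lines (2 members), mESC libraries only gave 1 member and DESeq2 5. The members that DESeq2 added were Asns (DESeq2 adjusted p = 0.0313), Chac1 (0.0278) and Trib3 (0.0433). Chac1 was also called with library size scaling (edgeR adjusted p = 0.044, Benjamini-Hochberg). The cause was not tested.

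Leaving out 1 library at a time gave 9 to 19 genes over the 6 pairs on day 1, 1 to 2 in PCGF35 control, 1 to 4 in PCGF35 dTAG, 1 to 2 in PCGF35_SPOC control, 1 to 2 in PCGF35_SPOC dTAG, 0 to 11 for dTAG-13 in NPCs, 0 to 74 and 37 to 1569 for the difference among pairs at NPC day 3 and day 6, and 1256 to 2371 genes and 1 to 4 members at day 0. A lone library left in a group was assumed to vary like the other groups. Members called ranged from 6 to 8 at NPC day 3, from 5 to 7 at day 6 and from 2 to 4 for day 6 against day 3. No day 0 line test was run with the replicate block, since clones lie within lines. Of the related lists at NPC days 3 and 6, counts lower in amino acid supply were 1 at day 6 with RLE scaling, DESeq2, library size only and without clone G3, and p53 targets higher at day 6 were 2 with the block.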
